A study of Mus musculus with 6 samples.

Results

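The genes described here are 10 genes of retinoic acid signalling and retinoid metabolism, measured in induced regulatory T (iTreg) cells with and without miR-31. Receptors are encoded by 5 of them (Rara, Rarb, Rarg, Rxra and Rxrb), 4 encode enzymes or a binding protein (Dhrs3, Rdh10, Crabp2 and Cyp26b1) and 1 is a classical target of the hormone (Tgm2). The members were every non-control probe whose gene name on the array was one of these 10, which gave 21 of the 41174 probes of the array, or 10 of its 27376 named genes. Of the 21 probes, 17 probes of 8 genes were bright enough to be tested, and the 4 others, among them both probes of Rarb and the only probe of Cyp26b1, were not well above background on any of the 6 arrays.

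Naive CD4+ T cells (CD25-, CD62L high and negative for a Foxp3-GFP reporter) were sorted from the spleens of C57BL/6 mice aged 6 weeks, per the labels. The methods of the study instead name spleen and lymph nodes as the source, and a C57BL/6J background. The cells came from 3 miR-31 fl/fl CD4Cre mice (cKO) and 3 miR-31 fl/fl mice without Cre (control), 1 culture and 1 array a mouse. All 6 cultures received plate-bound anti-CD3 (5 μg/ml), soluble anti-CD28 (2 μg/ml), TGF-β1 (5 ng/ml) and IL-2 (40 ng/ml per the labels, whereas the methods of the study give a lower concentration) for 4 days, and no retinoic acid is named among the additions. To ask which transcripts differ when miR-31 is absent, total RNA was hybridised to 1-colour Agilent arrays of 60-base probes, on which between 49.3% and 57.7% of spots were well above background. Both genotypes carried the floxed allele and the reporter, whereas only the cKO mice carried Cre, so that deletion of miR-31 and the presence of Cre cannot be told apart here. Because CD4Cre acts in the thymus from the stage at which CD4 is first expressed, the deletion preceded the cultures. No probe on the array was named for miR-31, and the arrays therefore give no check of the deletion itself.

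Retinoic acid is made from vitamin A (retinol) in a pair of oxidation steps, through retinal, and is broken down by enzymes of the Cyp26 family. It acts through retinoic acid receptors (RARs), which sit on DNA as heterodimers with retinoid X receptors (RXRs), hold corepressors when empty and exchange them for coactivators when the ligand binds. In CD4+ T cells retinoic acid, together with TGF-β1, is known to favour Foxp3 expression and the homing receptors for the gut.

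RAR and RXR pairs recognise direct repeats of a 6-base half-site, most typically with a spacer of 5 bases. RefSeq promoters (GRCm38.p6, 250 bases before to 50 bases after each start site) were at hand for 7 of the 10 genes, 15 promoters in all, and were searched on both strands for a repeat with a spacer of 5, 2 or 1 bases. The half-sites allowed were AGGTCA or its variant GGGTCA and, equally, AGTTCA or its variant GGTTCA, in any combination. Only that of Rarb held such a repeat among the 15. A spacer of 5 occurred in 32 of all 32851 promoters (0.0974%), a spacer of 2 in 0.268% and a spacer of 1 in 0.222%. Cyp26a1, which encodes the main retinoic acid hydroxylase and is one of the other pathway genes described further on, held the same kind of repeat on the opposite strand, and Bco1, a carotene oxygenase gene of the same lists, held one with a spacer of 1 (from -56 to -44). The stretches of Rarb and Cyp26a1 are shown because they are the textbook response elements by which retinoic acid switches on its own receptor and its own breakdown, and the arrays measured both genes. The capitals mark the half-sites. The stretch of Rarb lies on chromosome 14, chr14:16575507-16575535 on the minus strand, with the repeat from base -53 to -37 relative to the start site, and that of Cyp26a1 lies at chr19:37697770-37697798 on the plus strand, with the repeat from -32 to -16. The mature miR-31 (miR-31-5p, chr4:88910614-88910635, minus strand), the product removed by Cre, is given with its seed, bases 2 to 8, in capitals.
Rarb: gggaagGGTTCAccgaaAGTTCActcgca
Cyp26a1: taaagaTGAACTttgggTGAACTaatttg
miR-31-5p: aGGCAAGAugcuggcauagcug

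All levels below are log2 of the processed signal minus the 75th percentile of the same array, so that 0 is a signal equal to that percentile, and differences are cKO minus control on the log2 scale. None of the 17 tested probes passed an adjusted p of 0.05 in limma, fitted over all 22281 tested probes with Benjamini-Hochberg adjustment, where 54 probes (0.242%) passed, a count that was 0 or 1 without any single array. Their adjusted p lay between 0.138 and 0.833. An unadjusted p under 0.05 was reached by 7 of them. Of these, 5 had higher means in cKO, as 11.5% of all tested probes did at that threshold, and 2 had lower means, as 11.4% did. The 8 tested receptor probes differed by between -0.53 and 0.22 and overlapped between the genotypes in every case. Without cKO 1, however, 4 of these 8 reached an unadjusted p under 0.05 in limma and 0 an adjusted one. Of these, 3 were higher, at 0.31 and 0.54 for Rarg and 0.45 for Rxra, as 13.8% of all tested probes were in that fit, and 1 was lower, at -0.83 for Rxra, as 15.3% were. Of the 9 tested probes of Dhrs3, Rdh10, Crabp2 and Tgm2, 7 did not overlap, 5 being wholly higher in cKO, as 15.9% of all tested probes were, and 2 wholly lower, as 20.7% were.

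Rarb encodes RARβ, the receptor that retinoic acid induces through the element shown above. Its probe at chr14:17381032-17407740 (mm9), which joins sequence over 26709 bases of the gene and so crosses an intron, read -6.71, -6.24 and -6.93 in the cKO arrays and -5.995, -6.92 and -6.65 in the control arrays. The other probe, at chr14:17263511-17263570, read between -6.93 and -6.33 in cKO and between -7.02 and -6.08 in control. Neither was well above background on any array, and no fold is given. Cyp26a1, the other gene with the element, read -5.67, -6.49 and -7.14 in cKO and -6.24, -5.87 and -4.68 in control and was likewise not well above background on any array.

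Rara encodes RARα, the RAR usually described in T cells. Its single probe (chr11:98831859-98831918, mm9, plus strand) read -3.47, -3.11 and -2.96 in the cKO arrays and -3.27, -3.18 and -3.44 in the control arrays. The control arrays lay inside the range of the cKO arrays. The difference was 0.12 (SE 0.16, 95% interval -0.28 to 0.51, adjusted p = 0.671 in limma), and it was 0.0031 without cKO 3 and 0.26 without cKO 1.

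Rarg, which encodes RARγ, had 4 probes on chromosome 15. The brightest (chr15:102066309-102066368, mm9) read -2.04, -1.69 and -1.60 in cKO and -1.95, -1.91 and -1.99 in control, a difference of 0.18 (95% interval -0.17 to 0.52, adjusted p = 0.459 in limma), or 0.087 without cKO 3 and 0.31 without cKO 1. The controls were closely grouped and the cKO arrays fell on both sides of them. The next 2 probes differed by 0.22 (95% interval -0.47 to 0.91) and 0.08 (95% interval -0.36 to 0.52), with adjusted p of 0.644 and 0.798 in limma. The brightest and the second had a Pearson r of 0.93 over the 6 arrays, but the third had an r of 0.47 and 0.61 with them. The fourth probe was not well above background on any array.

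Rxra encodes RXRα, a partner shared by RARs and many other nuclear receptors, and had 2 tested probes whose differences were of opposite sign. The brighter probe (chr2:27618411-27618470, mm9) read 1.08, -0.06 and 0.45 in the cKO arrays and 1.09, 0.73 and 1.24 in the control arrays. Its difference was -0.53 (SE 0.31, 95% interval -1.27 to 0.21, adjusted p = 0.321 in limma). The dimmer probe (chr2:27615316-27615375) read -3.13, -2.35 and -2.40 in cKO and -2.70, -2.77 and -2.996 in control, a difference of 0.19 (95% interval -0.37 to 0.76, adjusted p = 0.619). On both probes the genotypes overlapped, and the difference on the brighter one was -0.26 without cKO 2 and -0.83 without cKO 1, and that on the dimmer one was 0.056 without cKO 2, 0.079 without cKO 3 and 0.45 without cKO 1. Over the 6 arrays the 2 probes had a Pearson r of -0.86, as cKO 1 was high on the first and low on the second, whereas cKO 2 was low on the first and high on the second. The difference between the 2 changes was -0.73 (two-sided exact permutation p = 0.3, and 0.982 after adjustment over the 12 pairs of probes of 1 gene, where 0.1 is the smallest p that 3 arrays against 3 allow).

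Rxrb, which encodes RXRβ, read 1.83, 1.85 and 2.12 in cKO and 1.80, 1.74 and 1.90 in control on its brighter probe (chr17:34174996-34175055, mm9). The lowest cKO arrays lay below the highest control array. The difference was 0.12 (95% interval -0.17 to 0.42, adjusted p = 0.546 in limma), or 0.030 without cKO 3. The dimmer probe differed by 0.05 (95% interval -0.30 to 0.41, adjusted p = 0.833). The intervals of all 8 receptor probes held 0, and their width differed from probe to probe, so that the smallest difference detectable with 3 arrays a genotype is not the same for each.

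**Figure D1:**
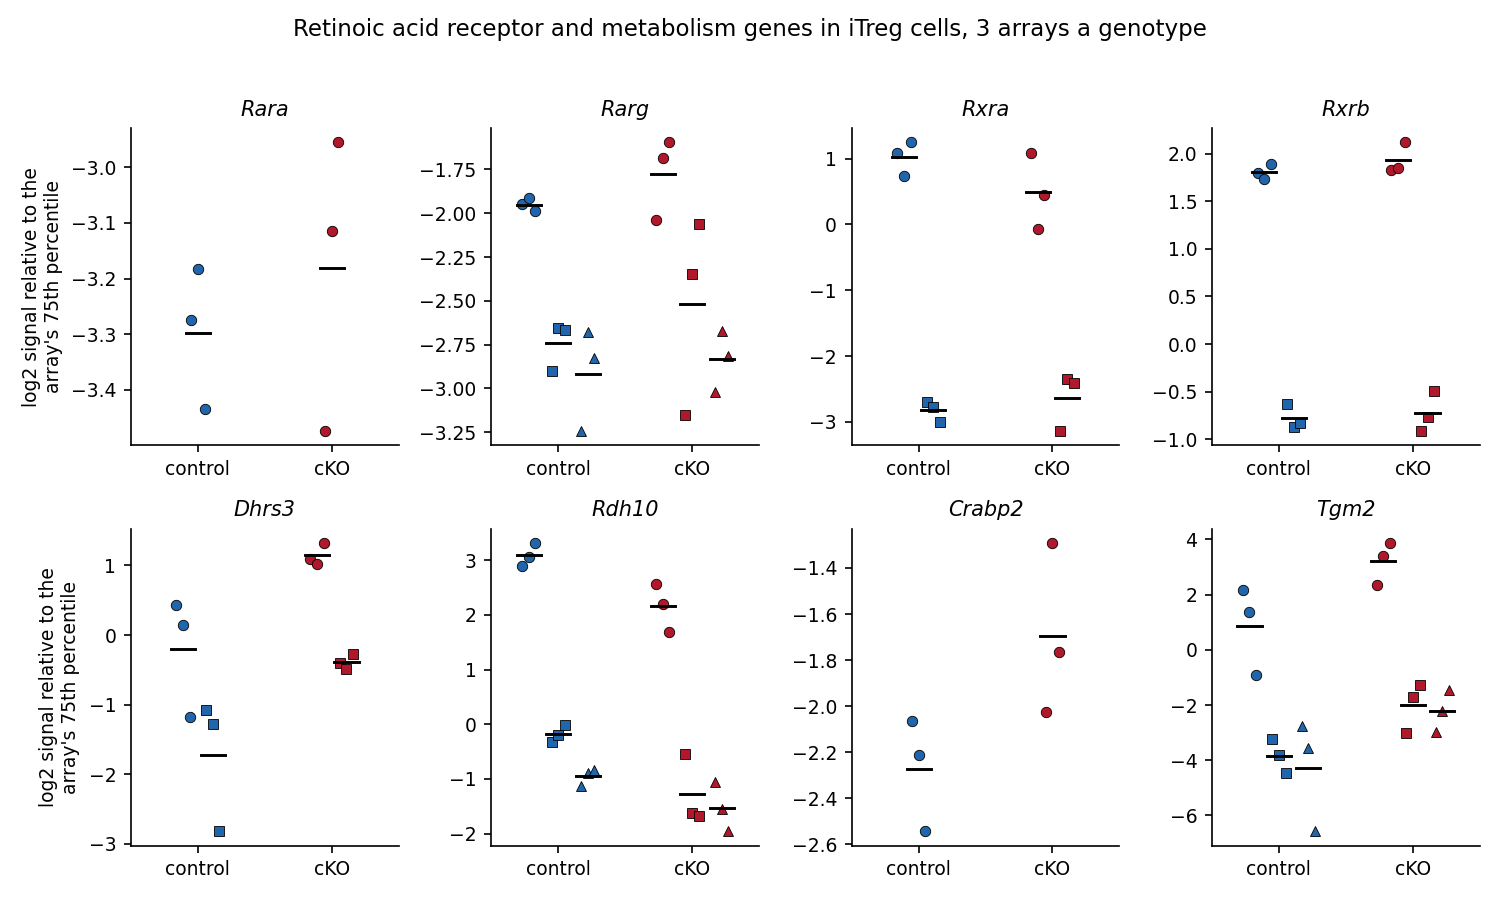
Levels of the 8 tested genes (y axis, log2 signal relative to the 75th percentile of the array) in control (blue) and cKO (red) arrays; each symbol shape is 1 probe of the gene, circles being the brightest, and black bars are means of 3 arrays. The axes differ between panels, and the genotypes stand apart on the circles of Dhrs3, Rdh10, Crabp2 and Tgm2 and overlap on those of the 4 receptors.

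Dhrs3 encodes a reductase that turns retinal back into retinol and is known to be induced by retinoic acid. Its levels were higher in every cKO array than in any control array on both probes, but by an amount that turned on 1 control array. The brighter probe (NM_011303, chr4:144517350-144517409, mm9) read 1.09, 1.02 and 1.32 in cKO and 0.42, 0.14 and -1.18 in control. The cKO arrays were tightly grouped, while control 3 lay well under the other control arrays. The difference was 1.35 (SE 0.41, 95% interval 0.34 to 2.35, adjusted p = 0.163 in limma), or 2.55-fold. The dimmer probe, at chr4:144517217-144517276, read -0.40, -0.49 and -0.27 in cKO and -1.08, -1.27 and -2.82 in control, a difference of 1.34 (adjusted p = 0.179 in limma). Both probes followed the same course (Pearson r of 0.997 over the 6 arrays), and without control 3 their differences were 0.86 and 0.79.

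Rdh10 encodes the retinol dehydrogenase that makes retinal, the opposite step to that of Dhrs3. Its levels ran the other way: all cKO arrays lay below all control arrays on 2 of its 3 probes. The brightest (chr1:16123127-16123186, mm9) read 2.57, 2.20 and 1.69 in the cKO arrays and 2.90, 3.07 and 3.32 in the control arrays. Its difference was -0.94 (SE 0.24, 95% interval -1.53 to -0.34, adjusted p = 0.138 in limma), a ratio of 0.522, and this was the lowest adjusted p among the 17 probes. The second (NM_133832, chr1:16122062-16122121) read -0.54, -1.62 and -1.68 in cKO and -0.33, -0.20 and -0.01 in control, a difference of -1.10 (SE 0.32, adjusted p = 0.154 in limma). Here too the groups stood apart, though cKO 1 lay close to the control arrays. The third (chr1:16121478-16121537) read -1.06, -1.55 and -1.96 in cKO and -1.13, -0.89 and -0.84 in control. On it cKO 1 lay above control 1, so that the groups overlapped, and the difference was -0.57 (95% interval -1.15 to 0.01, adjusted p = 0.221 in limma), or -0.35 without cKO 3. The 3 probes had pairwise r of 0.95 to 0.96 over the 6 arrays, but the changes of the brightest and the second were more negative than that of the third, by -0.37 and -0.53. Each of these had a two-sided exact permutation p of 0.1, the smallest that 3 arrays against 3 allow, and 0.6 after adjustment over the 12 pairs of probes of 1 gene.

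Crabp2 encodes the protein that carries retinoic acid to RARs in the nucleus. Its single probe (NM_007759, chr3:87752682-87752741, mm9) read -2.03, -1.29 and -1.76 in the cKO arrays and -2.07, -2.21 and -2.54 in the control arrays. The groups did not overlap, but cKO 1 and control 1 differed by less than the spread within either genotype. The difference was 0.58 (SE 0.22, 95% interval 0.03 to 1.13, adjusted p = 0.207 in limma), or 1.49-fold, and it was 0.38 without cKO 2.

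Cyp26b1 encodes a retinoic acid hydroxylase. Its probe (chr6:84521952-84522011, mm9) read -5.11, -5.73 and -5.19 in cKO and -5.94, -6.20 and -6.60 in control, and was not well above background on any array, so no fold is given.

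Tgm2 encodes transglutaminase 2, an enzyme that cross-links proteins and one of the genes longest known to be induced by retinoic acid. It had the largest differences and the widest spread among the 17 tested probes. The brightest probe (NM_009373, chr2:157942275-157942334, mm9, minus strand) read 2.34, 3.41 and 3.87 in the cKO arrays and 2.15, 1.36 and -0.92 in the control arrays. The lowest cKO array stood just above the highest control array, and the controls spread over a wider range than the gap between the group means. The difference was 2.34 (SE 0.83, 95% interval 0.32 to 4.36, adjusted p = 0.188 in limma), or 5.07-fold, and it was 1.45 without control 3. The second probe, which crosses an intron (chr2:157944682-157945882), read -3.02, -1.69 and -1.29 in cKO and -3.24, -3.82 and -4.45 in control. Its difference was 1.83 (SE 0.51, adjusted p = 0.148 in limma). Its groups did not overlap. The third (chr2:157945863-157945922) read -2.97, -2.23 and -1.47 in cKO and -2.76, -3.55 and -6.57 in control, with cKO 1 below control 1 and control 3 not well above background. Its difference was 2.07 (95% interval -0.36 to 4.50, adjusted p = 0.262 in limma), and 0.93 without control 3.

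**Figure D2:**
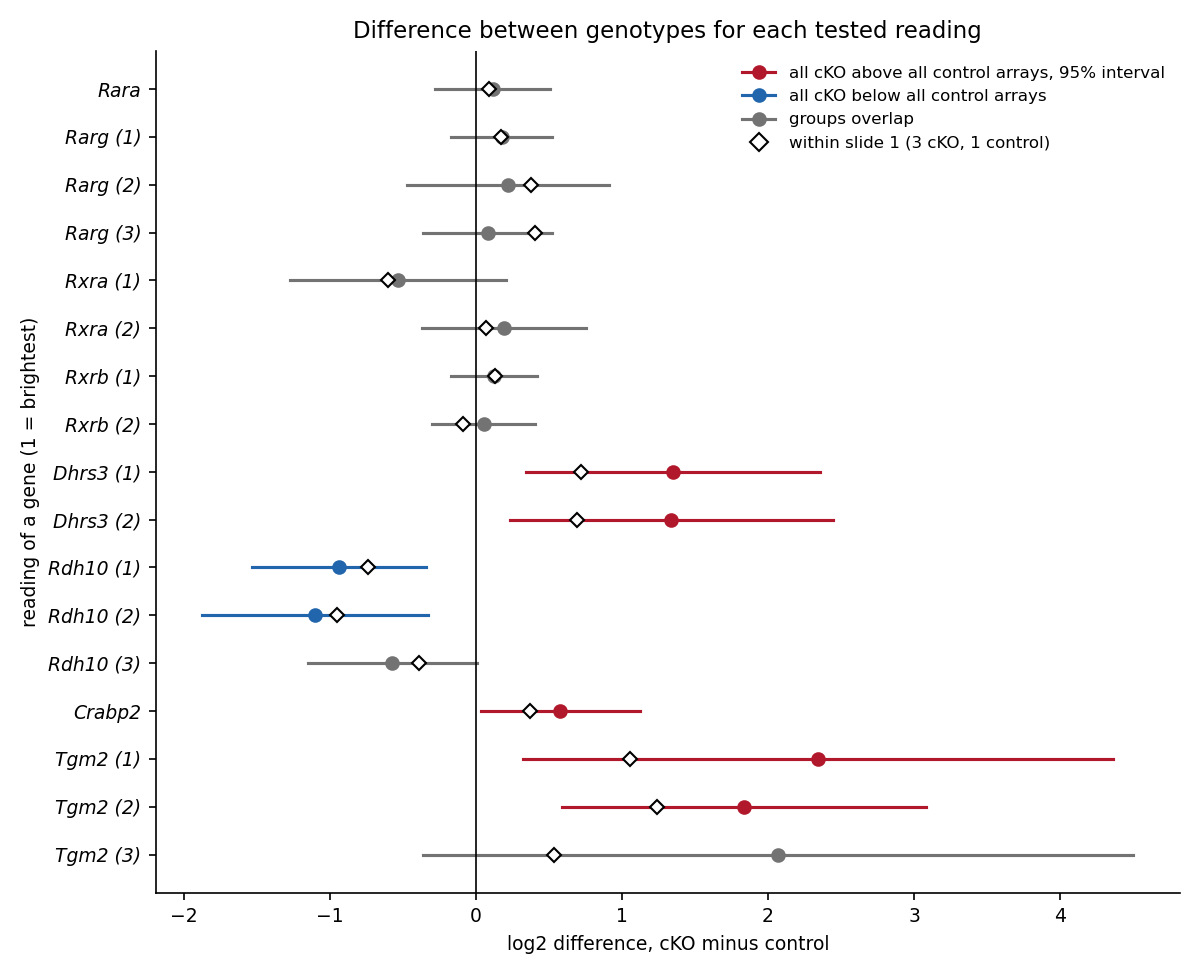
Difference between genotypes (x axis, log2, cKO minus control) for each of the 17 tested probes (y axis), with the limma 95% interval as a line; red and blue mark probes whose 3 cKO arrays all lay above or below the 3 control arrays, grey those that overlapped, and open diamonds the difference within slide 1. The receptor probes sit around 0 except the brighter one of Rxra, which lies to the left at -0.53, near the third Rdh10 probe. Rdh10 lies to the left, and Dhrs3, Crabp2 and Tgm2 lie to the right, with their diamonds nearer to 0 than the circles.

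Counted together, 13 of the 17 probes had a higher mean in cKO and 4 a lower one, with a median difference of 0.18, against -0.04 over all 22281 tested probes, of which 44.8% had a higher mean in cKO. The cKO arrays stood above the control arrays on 5 of the 17 probes (29.4%) and below them on 2 (11.8%), to be read against the 15.9% and 20.7% above. An unadjusted p under 0.05 was reached by 5 probes with higher means, against 11.5% of all probes, and by 2 with lower means, against 11.4% of all. Probes of 1 gene share their RNA, however, so the genes were also counted once, by the brightest tested probe. Of the 8 genes, 3 (Dhrs3, Crabp2 and Tgm2) stood wholly higher in cKO, where 16.6% of 14357 genes did so, and 1 (Rdh10) wholly lower, where 21.4% did so. The same 3 and 1 had an unadjusted p under 0.05, against 12% and 11.5% of all genes. At 8 genes these shares describe the members and set them apart from nothing. A two-sided t-test, the test named in the methods of the study, likewise gave 0 probes after adjustment, and 1 higher and 2 lower at an unadjusted p under 0.05. The count of 5 higher probes was 2 without cKO 2 and 1 without cKO 3, and the count of 2 lower probes was 4 without cKO 1.

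The arrays lay on 2 slides that were not balanced between the genotypes. Slide 1 held the 3 cKO arrays and control 1, and slide 2 held control 2 and control 3. Within slide 1, Dhrs3 differed by 0.72 and 0.69, Crabp2 by 0.37 and Tgm2 by 1.05, 1.24 and 0.54, in the order of brightness. Rdh10 differed there by -0.74, -0.95 and -0.39. The sign was that of the full comparison on 16 of the 17 probes, the exception being the dimmer probe of Rxrb, and on all 7 probes whose groups did not overlap, each of which had a smaller difference within the slide. With slide as a term in limma, which leaves control 1 as the only control beside the cKO arrays, 0 probes reached even an unadjusted p under 0.05. The share of the differences that goes with the slide and the share that goes with the genotype cannot be told apart for control 2 and control 3.

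**Figure D3:**
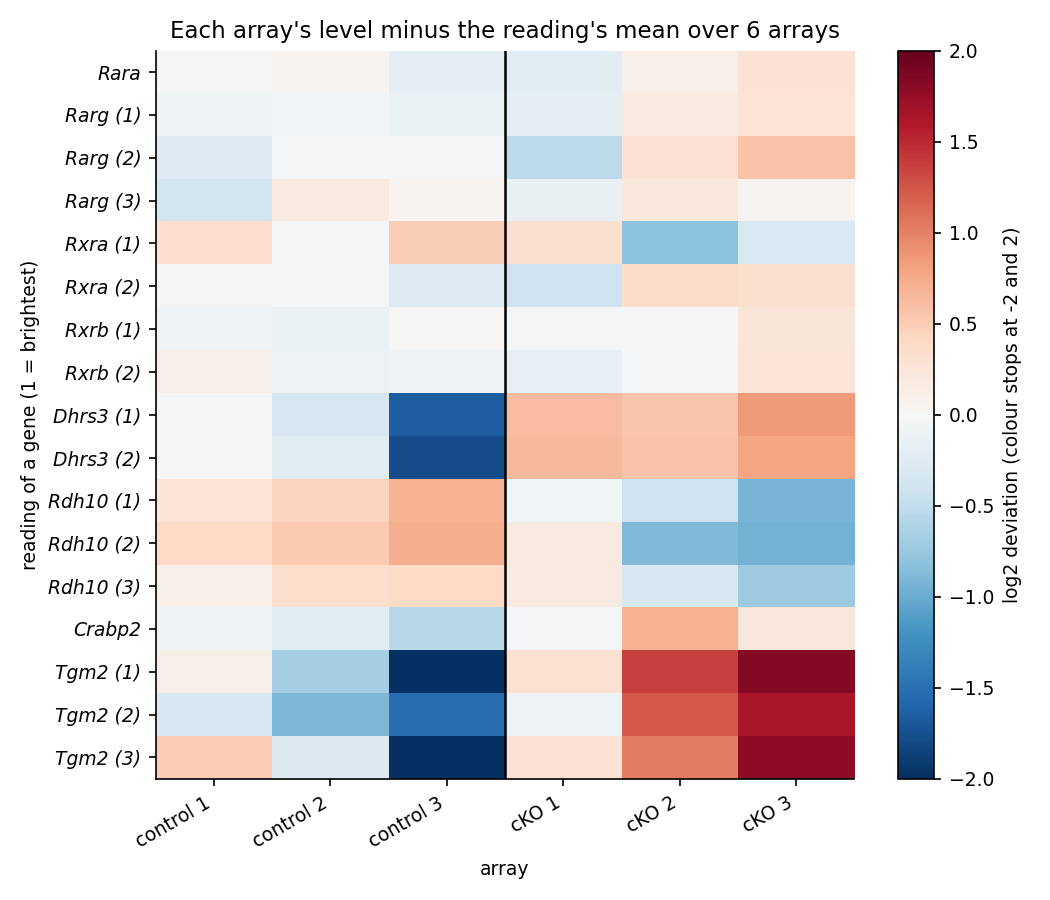
Level of each of the 17 tested probes (rows) on each array (columns, control left and cKO right of the line) minus the mean of that probe over the 6 arrays, in log2 units, red above and blue below the mean. Control 3 is lowest for Dhrs3 and Tgm2 and highest for Rdh10, cKO 3 is at the other end, and control 1 and cKO 1 lie between them.

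Control 3 held the lowest level of Dhrs3, Crabp2 and Tgm2 and the highest of Rdh10 on the brightest probes, whereas cKO 3 held the highest level of Dhrs3 and Tgm2 and the lowest of Rdh10. Of the 17 probes, 9 lay farthest from their mean on cKO 3 and 4 on control 3. Among the other members and the pathway genes below (51 candidates, each by its brightest tested probe), the gene most like Dhrs3 over the 6 arrays was Tgm2 (Pearson r of 0.97). Tgm2 was most like Nrip1 (0.97), which encodes a corepressor that binds ligand-bound receptors. Crabp2 was most like Stra6 (0.87), the membrane receptor that takes up retinol from its carrier, and Rdh10 was most like Crebbp (0.94), an acetyltransferase that serves as coactivator. For the receptors the closest genes were Nr1i3 for Rara (0.97), Rara for Rarg (0.93), Tbl1x for Rxra (0.89) and Ncoa1 for Rxrb (0.87). All these r values describe the same 6 arrays, in which genotype, slide and the pair of distant arrays are shared by every gene.

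The rest of the pathway was covered by 5 lists with 67 genes, of which 66 had a probe of their name, and 44 were tested by their brightest tested probe. Several of these genes, among them Gprc5a, Cd38, Dgat1, Adh1, Thra, Nrip1, Ncoa2 and Crebbp, had further tested probes, whose differences are not given here. By the brightest probe none of the 44 passed an adjusted p of 0.05 in limma. An unadjusted p under 0.05 was reached by 9 with higher means in cKO (20.5%, against 12% of all genes) and by 2 with lower means (4.55%, against 11.5%). The groups stood apart, higher in 9 (20.5%, against 16.6% of all genes) and lower in 4 (9.09%, against 21.4%). The median difference of the 44 genes was 0.06, against -0.05 over the 14357 genes.

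Genes known to be induced by retinoic acid gave the highest median, 0.85, among the lists with more than 1 tested gene. All 6 of the 11 that were tested had a higher mean in cKO, as 44.8% of all tested probes had, and 3 of them stood wholly higher, as 16.6% of all genes did. The multifunctional ectoenzyme gene Cd38 read -0.90, -0.79 and -0.38 in cKO and -1.62, -1.60 and -1.67 in control, a difference of 0.94 (SE 0.16, adjusted p = 0.075 in limma). Gprc5a, a retinoic acid-inducible orphan receptor that the study itself singled out from these arrays, read -0.56, -0.54 and 0.30 in cKO and -1.31, -1.07 and -1.31 in control, a difference of 0.96 (SE 0.25, adjusted p = 0.139). Its direction is therefore not independent of the choice of the gene. Itgb7, a subunit of the gut-homing integrin, differed by 0.17 (adjusted p = 0.326) without overlap. Hic1, a transcriptional repressor, differed by 1.01 (SE 0.38, adjusted p = 0.197) with overlap, and by 0.47 within slide 1. Another 5 genes, among them Ccr9 and Stra8, were not bright enough to be tested.

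Among the 26 genes of retinol supply and oxidation, 16 were tested, 11 with higher and 5 with lower means, and the median was 0.09. Dgat1, an acyltransferase that can esterify retinol besides its main work on triglycerides, read 1.14, 1.27 and 2.03 in cKO and 0.37, 0.39 and -0.08 in control, a difference of 1.25 (SE 0.27, adjusted p = 0.113 in limma). The groups stood apart there and also for Stra6, which differed by 0.59 (SE 0.16, adjusted p = 0.144), and for the retinol dehydrogenase gene Rdh5, which differed by 0.61 (adjusted p = 0.199), or 0.40 without cKO 3. The largest positive difference was that of the alcohol dehydrogenase gene Adh1, at 1.62 (SE 0.66, adjusted p = 0.216), with overlap, and it was 0.95 without cKO 3. The most negative was that of Rbp4, the retinol carrier of plasma, at -0.81 (SE 0.89, adjusted p = 0.585), with overlap and a sign that turned to 0.089 without cKO 3, and Adh5 stood wholly lower in cKO, at -0.34 (adjusted p = 0.337), but at -0.11 without cKO 2. Rbp4 was well above background on only 2 cKO arrays. In this list 3 of the 16 tested genes stood wholly higher, where 16.6% of all genes did, and 1 wholly lower, where 21.4% did. Of the retinal dehydrogenases, which make retinoic acid itself, Aldh1a2 was tested, at 0.93 (SE 0.66, adjusted p = 0.409) with overlap. When single arrays were left out it lay between 0.44 (without control 3) and 1.58 (without cKO 3). Aldh1a1 and Aldh1a3 were not bright enough.

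**Figure D4:**
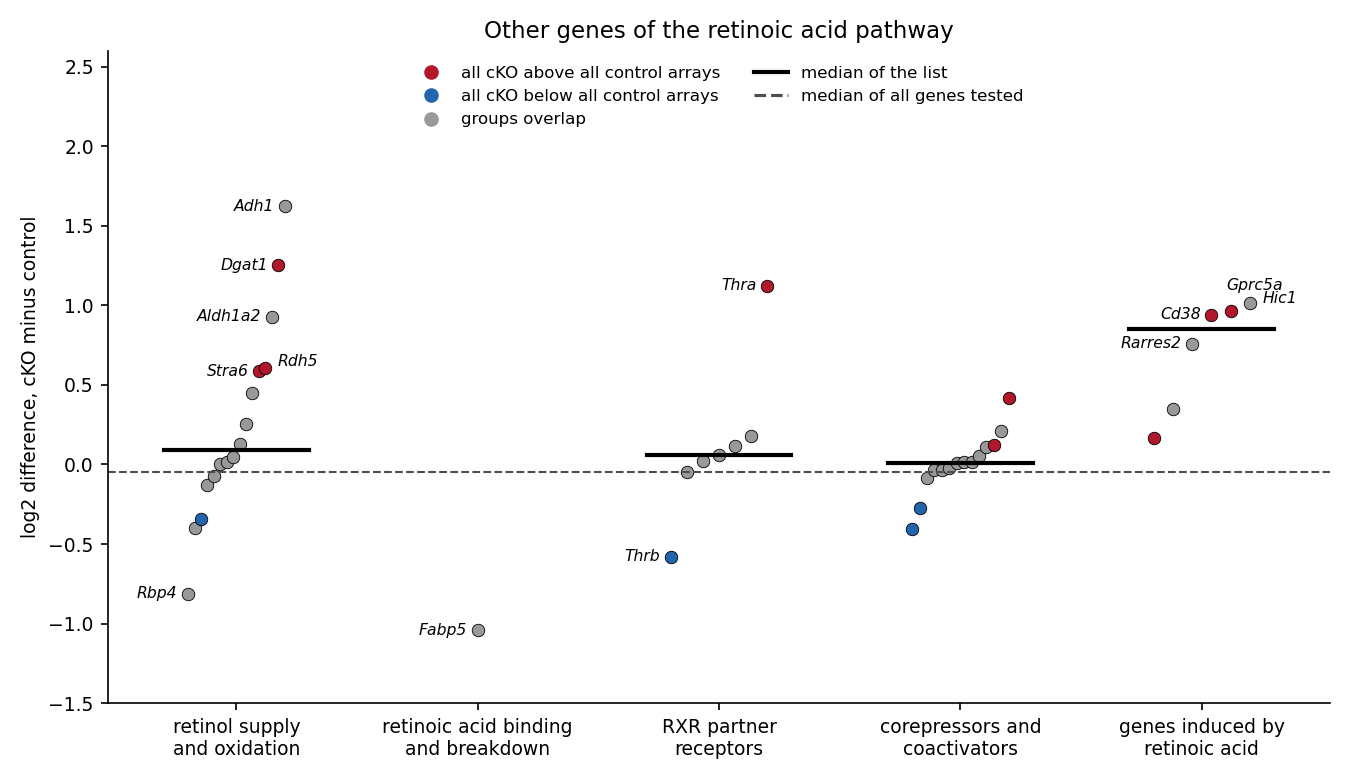
Difference between genotypes (y axis, log2, cKO minus control) for each tested gene of the 5 pathway lists (x axis); red and blue mark genes whose groups did not overlap, black bars are list medians, and the dashed line is the median of all 14357 genes tested. The median of genes induced by retinoic acid, among them Gprc5a, which the study chose with these arrays, lies at 0.85. Those of the other 3 lists with more than 1 tested gene lie between 0.01 and 0.09.

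The other lists held the machinery around the receptors. All 14 corepressor and coactivator genes were tested, with 8 higher and 6 lower means and a median of 0.01. Nrip1 (0.42, adjusted p = 0.199 in limma) and Sin3a (0.12, adjusted p = 0.424) stood wholly higher in cKO, and the coactivator genes Ncoa2 (-0.41, adjusted p = 0.138) and Crebbp (-0.28, adjusted p = 0.187) wholly lower. These were 2 higher and 2 lower of 14, where 16.6% of all genes stood wholly higher and 21.4% wholly lower. In the list of 12 genes for RXRγ (Rxrg, not bright enough to be tested) and the partner receptors of RXRs, 7 were tested, and the thyroid hormone receptor genes lay at both ends: Thra differed by 1.12 (SE 0.32, adjusted p = 0.152 in limma) and Thrb by -0.58 (SE 0.25, adjusted p = 0.229), each without overlap, and Thrb by -0.31 without cKO 1. Thrb was well above background on only 2 cKO arrays. Thus 1 of these 7 genes stood wholly higher and 1 wholly lower, against the same 16.6% and 21.4% of all genes. In the list of 4 genes of retinoic acid binding and breakdown only Fabp5 was tested, which carries retinoic acid to another nuclear receptor. It differed by -1.04 (SE 0.52, adjusted p = 0.273) with overlap, and by -0.45 without cKO 3. Fabp5 was well above background on only 1 cKO array and 2 control arrays, so the size of this difference rests partly on readings at background. Crabp1 and Cyp26a1 were not bright enough, and no probe was named Cyp26c1.

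The labelled cell type was checked against its markers. Of 6 T cell markers 5 were tested (Cd3d, Cd3e, Cd3g, Cd4 and Cd28, with Cd3d the brightest), the exception being the probe named for the T cell receptor alpha chain, and all 5 regulatory T cell markers were tested, with Foxp3 bright enough on each of the 6 arrays. By genotype 4 of the 5 T cell markers were wholly higher in cKO, as 16.6% of all tested genes were, and Cd3e was wholly lower, as 21.4% were. The summed linear level of the 5 T cell markers, in multiples of the 75th percentile, was 119, 136 and 168 in the cKO arrays and 110.0, 109.9 and 98.9 in the control arrays. Most of this sum was the Cd3d probe alone, at 99.8, 115 and 138 in cKO and 93.0, 92.2 and 83.5 in control. With a range in cKO wholly above that in control and the same arrays at its ends, cKO 3 and control 3, its part in the differences above was not tested. The sum of the 5 regulatory T cell markers, of which Tnfrsf18 was the brightest, was 172, 195 and 189 in cKO and 176, 172 and 137 in control, with overlap. Within that list Foxp3 stood wholly lower in cKO, at -0.62 (SE 0.22, adjusted p = 0.192 in limma) and -0.39 without cKO 3, and Ctla4 wholly higher, at 0.94 (SE 0.24, adjusted p = 0.135). The other 3 overlapped and turned on single arrays: Il2ra differed by -0.56, or -0.22 without cKO 3, Tnfrsf18 by 0.40, or 0.20 without control 3, and Ikzf2 by 0.51, or 0.03 without control 3. The sum of Cd8a and Cd8b1 was 4.06, 3.87 and 4.34 in cKO and 5.34, 4.42 and 5.61 in control, wholly lower in cKO. Neither gene stood apart by itself (-0.86, adjusted p = 0.254 in limma, for Cd8a and -0.18, adjusted p = 0.550, for Cd8b1). The part of this sum in the differences above was not tested either. Cd4 itself was dimmer by mean log2 level over the 6 arrays, at -0.36, against 1.74 for Cd8b1 and 0.16 for Cd8a. Cd8b1 lay above Cd4 on every array, and Cd8a did so except on cKO 2 and cKO 3. Hence Cd4 did not stand above the Cd8 genes as the CD4+ label would have it. These are levels of different probes, and the share of CD4+ cells was not tested.

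Most markers of other cell types were not bright enough to be tested. Of the B cell markers Cd79b was tested, with levels of 0.454, 0.609 and 1.05 in cKO and 0.529, 0.504 and 0.311 in control on the linear scale, while Cd79a and Ms4a1 were not bright enough. Of 7 myeloid and dendritic cell markers 2 were tested (Csf1r and Cd68), with sums of 0.170, 0.225 and 0.267 in cKO and 0.156, 0.162 and 0.147 in control, while Lyz2, Itgam, Cd14, Itgax and Flt3 were not. Of 6 stromal and epithelial markers 2 were tested (Epcam and Krt18), with sums of 0.458, 0.634 and 0.596 in cKO and 0.332, 0.356 and 0.422 in control. The last 2 sums also lay wholly higher in cKO, and their part in the differences of Dhrs3, Crabp2 and Tgm2 was not tested. In bulk RNA of this kind, fewer cells of a type and less RNA per cell cannot be told apart.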

How the data were processed

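The deposited scanner files were made by the authors with Agilent Feature Extraction (version 9.1 per the labels, 10.7.3.1 per the file headers) and hold the processed signal intensity of each spot, background-corrected and on a linear scale, with flags. The authors also deposited a table of log2 values of the same arrays, used here as an alternative. Its 6 columns had medians of 6.15 and followed log2 of the processed signal with r of 0.998 or more. How its values were normalized is not given in the sources used here. Flagged outlier spots were left out, log2 intensity minus the 75th percentile of the non-control spots of each array was averaged over spots of a probe, and a probe flagged as well above background by 3 or more of the 6 arrays was tested with limma 3.58.1 in R 4.3.3 (lmFit and eBayes, 3 cKO against 3 control arrays, Benjamini-Hochberg), a procedure tested on simulated data first. Of the tested probes, 19 lacked a value on an array. No spot was saturated, and the number of arrays limits the precision. Positions are those of the array (mm9), whose exon and UTR annotation was not used here.

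The 10 members, the pathway lists and the markers were chosen with earlier results of these data known. Named were every member probe and, in each list, the genes with the largest positive and negative differences and those whose groups did not overlap (retinal dehydrogenases, Cyp26a1 and Rarres2 were added after their values were seen). Of the member probes, 17 carried a RefSeq accession, and all 17 matched a current transcript of the same symbol in RefSeq (GRCm38.p6). Exact permutation tests used scipy 1.17.1. Alternatives were other background corrections, scalings, filters and tests, array weights, slide, a replicate block and leaving out each array.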

Additional observations from a re-analysis of the deposited data

How the results depend on the processing

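No member probe passed an adjusted p of 0.05 under any alternative. Over all probes the number that passed in limma, 54 as reported, was 0 with slide as a term, with a replicate block, by the t-test, without the filter and with normexp and the 75th percentile, 0 or 1 without any single array, 26 with quantile normalization, 28 with the authors' table, 105 with trend and robust fitting, 174 with the filter on all 6 arrays, 112 with normexp and quantile normalization and 924 with array weights. The replicate numbers did not pair the samples, as same-numbered arrays deviated with correlations of -0.14, 0.01 and -0.19, and a replicate block gave 0 member probes past the adjusted p, 3 higher and 2 lower at an unadjusted p under 0.05, and 1 lower pathway gene. The 5 higher and 2 lower member probes at that threshold were 0 and 0 with slide as a term, and the t-test gave 1 higher. When each array was left out in turn they ranged from 1 to 7 and from 2 to 4. The 9 higher and 2 lower pathway genes were 5 and 0 with slide as a term, 5 lower with array weights, and 1 lower without the filter and with normexp and the 75th percentile; leaving out arrays gave 6 to 10 and 1 to 3. With array weights 3 pathway genes (Dgat1, Thra and Cd38) passed the adjusted p.

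Of 303 alternative values for single member probes 296 kept their direction, with none past the threshold, and 7 turned sign, all in receptors: the brighter Rxrb probe to -0.048 with normexp and the 75th percentile, the dimmer to -0.090 with slide as a term and -0.063 without cKO 3 (leaving out arrays gave -0.063 to 0.15); the third Rarg probe to -0.0012 without cKO 2 and -0.083 without control 1 (-0.083 to 0.20) and the second to -0.0085 without cKO 3 (-0.0085 to 0.54); and the dimmer Rxra probe to -0.17 as a mean over both probes. Part of the 296 kept its direction by construction. The other filters, the t-test, trend and robust fitting and the replicate block leave the difference of a member probe as it is and change only its p. Normexp and the 75th percentile moved the median of all probes from -0.04 to 0.11. Among members, that setting brought Rara to 0.62, the tested Rarg probes to 0.41, 0.55 and 0.55, and the dimmer Rxra probe to 0.63. It brought the third Rdh10 probe to -0.07 and, among pathway genes, Nrip1 to 0.15 and Ncoa2 to -0.11. It turned Rbp4 to 0.46, Fabp5 to 0.53, Thrb to 0.44 and Itgb7 to -0.077. Rbp4 was also 0.48 with array weights and 0.089 without cKO 3 (-1.74 to 0.089 when arrays were left out). Normexp and quantile normalization brought the second and the third Tgm2 probe to 1.00 and 0.91 and Crabp2 to 0.34. Among pathway genes it brought Stra6 to 0.35, Rbp4 to -0.27, Fabp5 to -0.30 and Thrb to -0.23. The cause was not tested. The Crabp2 probe kept an unadjusted p under 0.05 under 5 of its 17 alternatives. The adjusted p of the Rdh10 probes ranged down to 0.056 and that of Tgm2 down to 0.066. Depth on an array is signal over background, which limits Rarb, Cyp26b1 and Cyp26a1 to a reading at background.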

Other observations

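Among the 24 member and pathway genes too dim to be tested, 2 had groups that stood wholly higher in cKO and 2 wholly lower, where 2.57% and 4.4% of the 18893 untested probes did so. They were chosen after their values were seen. Dhrs9, a dehydrogenase able to oxidise retinol, read -6.78, -5.94 and -7.06 in cKO and -5.76, -5.66 and -4.22 in control. Aldh1a1, a retinal dehydrogenase, read -5.54, -5.53 and -4.97 in cKO and -3.71, -4.24 and -4.69 in control. Each was well above background on 1 control array and on no cKO array. The gut-homing chemokine receptor gene Ccr9 read -4.86, -4.70 and -4.65 in cKO and -5.05, -5.25 and -5.35 in control. It was well above background on 1 cKO array. Cyp26b1, given above, was at background throughout. No fold is given for these.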
